A study of Mus musculus with 24 samples.

Results

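The fibroblast growth factor (FGF) genes described here were 10 genes chosen by name, namely the ligands *Fgf4*, *Fgf5*, *Fgf8*, *Fgf15* and *Fgf17*, the receptors *Fgfr1*, *Fgfr2*, *Fgfr3* and *Fgfr4*, and the FGF-binding protein *Fgfbp1*. All 10 were found in both count tables, among 35022 genes in the table of PD03 removal and 48709 in that of CHIRON removal. The cells were wild-type E14 mouse embryonic stem cells (mESCs), a line of strain 129, on StemBond hydrogels, polyacrylamide gels to which fibronectin is covalently tethered, made soft or stiff. They were kept for 12 h in 2i + LIF with 1 µM PD03, an inhibitor of MEK, and 3 µM CHIRON, an inhibitor of GSK3. The 0 h RNA came from this medium. Later RNA came from cells moved for 2 h or 12 h to CHIRON + LIF (PD03 removal) or to PD03 + LIF (CHIRON removal), so that LIF, the line and the coating were shared by all groups. Crossing substrate and time gave 6 groups per experiment, of 2 replicates each, and either experiment had its own 0 h libraries.

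Of the 24 libraries, 1 stiff library at 2 h of CHIRON removal (replicate 1) held only 171333 counts and was left out, so 23 libraries were used and that group had 1 library. With it added, no member passed the threshold in any contrast within CHIRON removal by edgeR. Total counts ranged from 16222196 to 26442153 in the 12 libraries of PD03 removal and from 19393787 to 31111260 in the 11 of CHIRON removal. The labels do not say whether replicates came from separate cultures. The study describes both experiments as done in triplicate, whereas the samples here held only 2 replicates a group. Its supplement also numbers the replicates of both experiments 1 or 2. It says that 1 sample of CHIRON removal was discarded for its low reads. For its figures as a whole, the study speaks of independent replicates. If these were not separate cultures, p-values measure only the spread between these libraries, which may be technical. Levels are CPM, the reads of a gene scaled to the total of the genes tested, with TMM factors set within each experiment. Differences are log2 fold changes from the quasi-likelihood test of edgeR, with a standard error (SE) and a p adjusted by Benjamini-Hochberg over all genes tested, and a gene was called at an adjusted p under 0.05. In bulk RNA, fewer cells of a type and less RNA per cell cannot be told apart.

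FGFs are secreted ligands that bind receptor tyrosine kinases together with heparan sulphate and activate, among others, the MEK and ERK cascade, whose output includes the feedback inhibitors of the Sprouty, Spred and Dusp families. In mESCs *Fgf4* is the main autocrine ligand, and signalling through ERK primes cells for exit from naive pluripotency. PD03 blocks this cascade below the receptors, whereas CHIRON stabilises β-catenin and so mimics Wnt signalling.

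Among these genes *Fgf4*, whose protein is made by naive cells, had a known regulatory element bound by Sox2 and Oct4 in its last exon. The element lay in the 3′ UTR of exon 3 of 3 at chr7:144864390-144864415 (GRCm38, + strand), 1453 bases after the stop codon, and is shown because *Fgf4* was called in every contrast against 0 h. Capitals mark the Sox motif CTTTGT and the octamer motif ATGCNAAT, 4 bases apart.

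*Fgf4* element: aactCTTTGTttggATGCTAATggga

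This arrangement, searched on both strands with a gap of at most 4 bases, occurred in transcripts of 16 of 21901 protein-coding genes (0.07%). The promoters of *Fgf4* and *Fgfbp1* are shown because these members were called at 2 h. They are the 250 bases before the RefSeq start (GRCm38.p6), at chr7:144861136-144861385 on the + strand and chr5:43981800-43982049 on the - strand. Capitals mark the GC box GGGCGG.

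*Fgf4* promoter: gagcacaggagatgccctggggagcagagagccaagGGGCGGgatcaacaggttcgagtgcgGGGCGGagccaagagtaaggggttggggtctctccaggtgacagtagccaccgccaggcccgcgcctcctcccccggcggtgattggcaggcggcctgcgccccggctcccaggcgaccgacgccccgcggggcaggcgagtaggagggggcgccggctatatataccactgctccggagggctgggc

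*Fgfbp1* promoter: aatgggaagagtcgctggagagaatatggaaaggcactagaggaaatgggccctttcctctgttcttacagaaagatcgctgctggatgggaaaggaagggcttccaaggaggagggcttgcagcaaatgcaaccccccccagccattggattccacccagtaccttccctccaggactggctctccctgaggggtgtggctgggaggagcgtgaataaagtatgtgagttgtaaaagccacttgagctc

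The *Fgf4* promoter was 71.2% G and C with 2 GC boxes, and that of *Fgfbp1* was 53.6%, against a median of 52.4% over 32851 promoters. A GC box was found in 32.7% of all promoters. On both strands, neither sequence held the TCF/LEF motif CTTTGA (13.8% of all promoters), the ETS motif CCGGAAG (6.9%), the octamer ATGCNAAT (2.9%) or the STAT motif TTCNNGGAA (4.1%). These are matches of letters and say nothing of binding.

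Members differed widely in level. Per kilobase of annotated exon, *Fgf4* had the highest level in both experiments (median 46.1 CPM per kb in PD03 removal and 67.4 in CHIRON removal), followed by the receptor *Fgfr1* (10.3 and 20.7) and *Fgfbp1* (8.69 and 2.13). The ranges of *Fgfr1* and *Fgfbp1* overlapped in PD03 removal. *Fgf17*, *Fgfr2* and *Fgfr4* lay between 0.260 and 0.843 CPM per kb in both, and their ranges overlapped. *Fgf5*, *Fgf8*, *Fgf15* and *Fgfr3* were below 0.2 CPM per kb by median. The exon length includes 314 bases of *Fgfr2* that *Ctbp2* shares, and bases of *Fgfr1*, *Fgfr3* and *Fgf15* that genes on the other strand share, and no source says whether reads were counted by strand. In GRCm38 *Fgf4* lay at chr7:144847367-144865243, *Fgfr1* at chr8:25513654-25575718, *Fgfr2* at chr7:130162451-133123350, *Fgfr4* at chr13:55152640-55168759 and *Fgfbp1* at chr5:43978858-43981779.

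Of the ligands, *Fgf4* alone was abundant. In PD03 removal its soft libraries started at 207 and 211 CPM, stood at 139 and 136 CPM by 2 h and reached 149 and 146 CPM by 12 h. Its stiff libraries started at 220 and 191 CPM, stood at 131 and 130 CPM by 2 h and reached 151 and 138 CPM by 12 h. All libraries taken after the removal therefore lay below all libraries at 0 h, on both substrates. This gave a log2 fold change by 2 h of -0.61 (SE 0.057, adjusted p = 2.4e-08) on soft and -0.65 (SE 0.057, adjusted p = 2.7e-09) on stiff substrates. By 12 h it was -0.50 on both (adjusted p = 5.8e-08 on soft and 4.1e-08 on stiff).

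After CHIRON removal *Fgf4* moved the other way. Its soft libraries started at 146 and 137 CPM, stood at 216 and 215 CPM by 2 h and reached 332 and 354 CPM by 12 h. Its stiff libraries started at 157 and 142 CPM, with 214 CPM in the single 2 h library, and reached 324 and 339 CPM by 12 h. Each time point lay above the one before on both substrates, with no overlap. The 12 h fold change on the log2 scale was 1.28 (SE 0.078, adjusted p = 3.2e-09) on soft and 1.15 (SE 0.078, adjusted p = 1.5e-08) on stiff substrates. At 2 h it was 0.61 (adjusted p = 0.00082) and 0.51 (adjusted p = 0.040). The 2 h calls were less stable: that on soft substrates was lost without soft 0 h replicate 2 (0.57, adjusted p = 0.060), and that on stiff substrates, which rests on 1 library, was lost without either stiff library at 0 h and with the library of 171333 counts added (-0.31, adjusted p = 0.946).

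**Figure D1:**
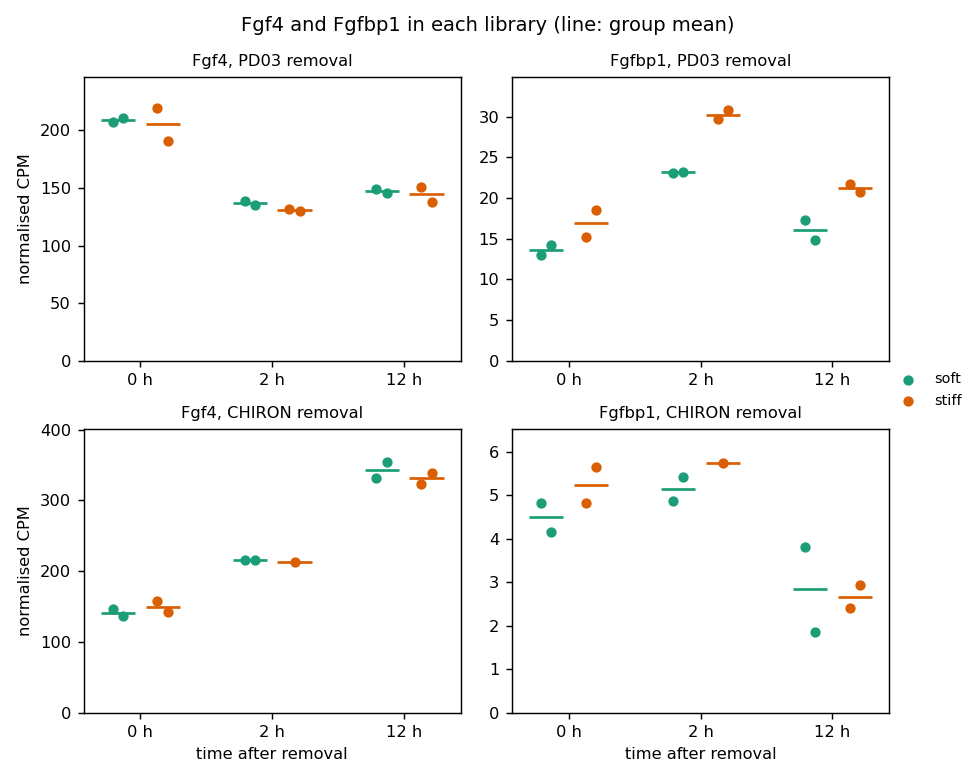
Normalised CPM (y axis, from 0) of *Fgf4* and *Fgfbp1* by time after removal, with 1 point per library on soft (green) and stiff (orange) substrates and a line at the group mean. *Fgf4* lay lower at 2 h and 12 h after PD03 removal and higher after CHIRON removal, and *Fgfbp1* was highest at 2 h after PD03 removal and higher on stiff substrates there.

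The other ligands had few reads. *Fgf17*, an FGF of the *Fgf8* subfamily, held 11 to 24 reads per library in PD03 removal and 9 to 35 in CHIRON removal, and passed no threshold in either, with a lowest adjusted p of 0.066 at 12 h on stiff substrates after CHIRON removal (log2 fold change 1.31, SE 0.47). *Fgf5*, a marker of primed epiblast, held 1 to 4 reads per library at 0 h and 3 to 10 at 12 h of PD03 removal, and 3 to 8 and 2 to 3 in CHIRON removal. Summed over 4 libraries each, these were 8 and 27 reads in PD03 removal and 18 and 10 in CHIRON removal. *Fgf8*, a ligand of gastrulation, held at most 4 reads per library in PD03 removal and 9 in CHIRON removal. *Fgf15*, an FGF of the embryonic brain and the ileum, held at most 4 and 18, and in CHIRON removal, where it was tested, its lowest adjusted p was 0.22, against 0 h on stiff substrates by 12 h (log2 fold change 2.06, SE 1.08). A count of 0 allows up to 3 reads, which is 0.147 to 0.247 CPM in PD03 removal, where changes of *Fgf8* and *Fgf15* were not detectable at this depth. In CHIRON removal *Fgf8* held 0 to 9 reads, with a median of 4, did not pass the filter on low counts and was not tested. Such limits cover counting error only.

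**Figure D2:**
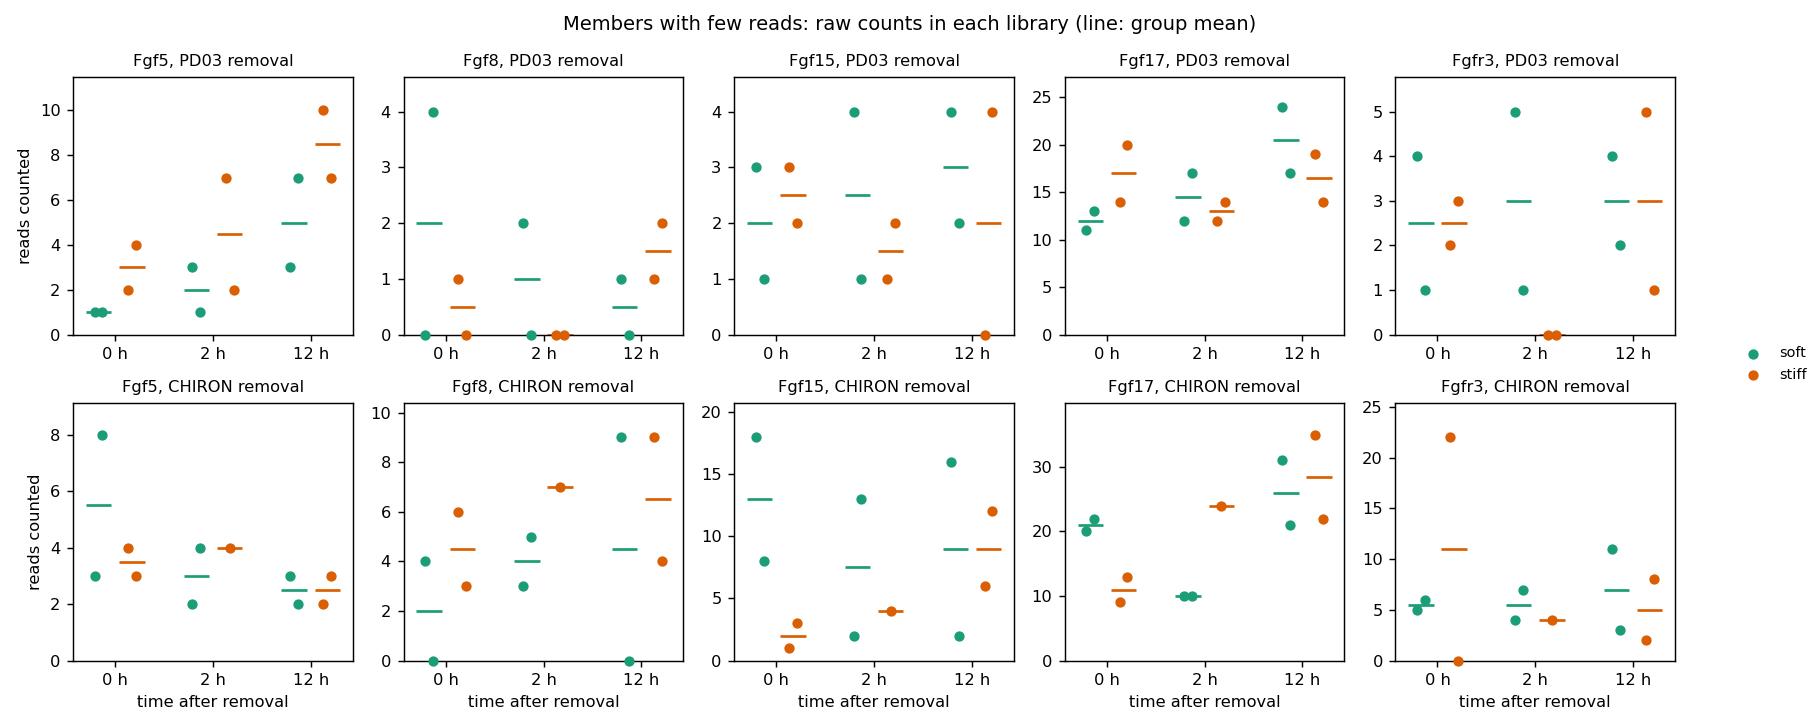
Reads counted (y axis, raw, not scaled for depth) for the 5 members with few reads, by time after removal, with 1 point per library on soft (green) and stiff (orange) substrates and a line at the group mean. No library held more than 35 reads of any of them, and *Fgf5* reached 10 reads at 12 h of PD03 removal.

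Of the receptors, *Fgfr1* was the abundant one. In PD03 removal its soft libraries started at 101 and 96.3 CPM, stood at 102 and 96.3 CPM by 2 h and reached 107 and 105 CPM by 12 h. Its stiff libraries started at 97.9 and 98.8 CPM, stood at 108 and 100.2 CPM by 2 h and reached 106 and 115 CPM by 12 h. By 12 h both substrates lay above their start by a small margin. This log2 fold change was 0.10 (adjusted p = 0.18) on soft and 0.17 (SE 0.058, adjusted p = 0.023) on stiff substrates, and DESeq2 lost the latter call (adjusted p = 0.054), as did leaving out either stiff library at 0 h or stiff 12 h replicate 2.

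In CHIRON removal the soft libraries of *Fgfr1* started at 204 and 203 CPM, stood at 204 and 199 CPM by 2 h and reached 242 and 249 CPM by 12 h. Its stiff libraries started at 213 and 181 CPM, with 181 CPM in the 2 h library, and reached 252 and 262 CPM by 12 h. All 12 h libraries lay above the others. The resulting fold change on the log2 scale was 0.27 (SE 0.081, adjusted p = 0.026) on soft and 0.38 (SE 0.081, adjusted p = 0.0029) on stiff substrates, and the former was lost on leaving out any of its 4 libraries.

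*Fgfr2*, whose reads were few, changed in opposite directions. In PD03 removal its soft libraries held 70 and 76 reads at the start (4.03 and 4.82 CPM), 68 and 69 by 2 h (4.85 and 5.49 CPM) and 41 and 45 by 12 h (2.82 and 2.93 CPM). Its stiff libraries held 44 and 111 reads at the start (2.86 and 5.45 CPM), 59 and 61 by 2 h (3.85 and 4.39 CPM) and 22 and 21 by 12 h (1.58 and 1.73 CPM). The stiff 0 h libraries stood far apart, and the 12 h libraries lay below both on either substrate. By 12 h the log2 fold change was -0.62 on soft (SE 0.25, adjusted p = 0.067) and -1.36 on stiff substrates (SE 0.29, adjusted p = 0.00045). Without stiff 0 h replicate 2 the latter was -0.79 and lost its call (adjusted p = 0.077).

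In CHIRON removal the soft libraries of *Fgfr2* held 20 and 38 reads at the start (0.984 and 1.65 CPM), 31 and 50 by 2 h (1.89 and 2.68 CPM) and 103 and 86 by 12 h (3.86 and 5.51 CPM). Its stiff libraries held 50 and 28 reads at the start (2.71 and 1.52 CPM), 44 in the 2 h library (2.04 CPM) and 105 and 96 by 12 h (5.39 and 5.12 CPM). The first and last times did not overlap on either substrate. By 12 h the fold change on the log2 scale was 1.79 (SE 0.33, adjusted p = 0.00092) on soft and 1.31 (SE 0.32, adjusted p = 0.0076) on stiff substrates, the latter lost without stiff 0 h replicate 2 or stiff 12 h replicate 1. Some of these reads may belong to *Ctbp2*, whose exons overlap the annotated model on the same strand.

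*Fgfr4*, a receptor with a preference for the *Fgf15* subfamily, held 8 to 35 reads per library in PD03 removal. Its soft libraries started at 1.44 and 1.02 CPM, stood at 0.570 and 0.796 CPM by 2 h and reached 1.79 and 1.37 CPM by 12 h. They were lowest at 2 h (-0.86, adjusted p = 0.47), and at 12 h they overlapped the start (0.35, adjusted p = 0.52). Its stiff libraries held 19 and 18 reads at the start (1.24 and 0.883 CPM), 19 and 17 by 2 h (1.24 and 1.22 CPM) and 35 and 20 by 12 h (2.52 and 1.65 CPM), so that the first and last times did not overlap in CPM. This was a log2 fold change of 1.01 (SE 0.36, adjusted p = 0.029). DESeq2 lost this call (adjusted p = 0.13), as did leaving out stiff 0 h replicate 2 or stiff 12 h replicate 1. In CHIRON removal *Fgfr4* held 22 to 94 reads, the soft 12 h libraries stood far apart (3.52 and 1.41 CPM), and no contrast passed. *Fgfr3* held at most 5 reads per library in PD03 removal and 22 in CHIRON removal. The 22 reads (1.19 CPM) lay in stiff 0 h replicate 1, and the other libraries held at most 11. It passed the filter on low counts in CHIRON removal only through that library. It passed no threshold there, and this outcome is given as a description.

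**Figure D3:**
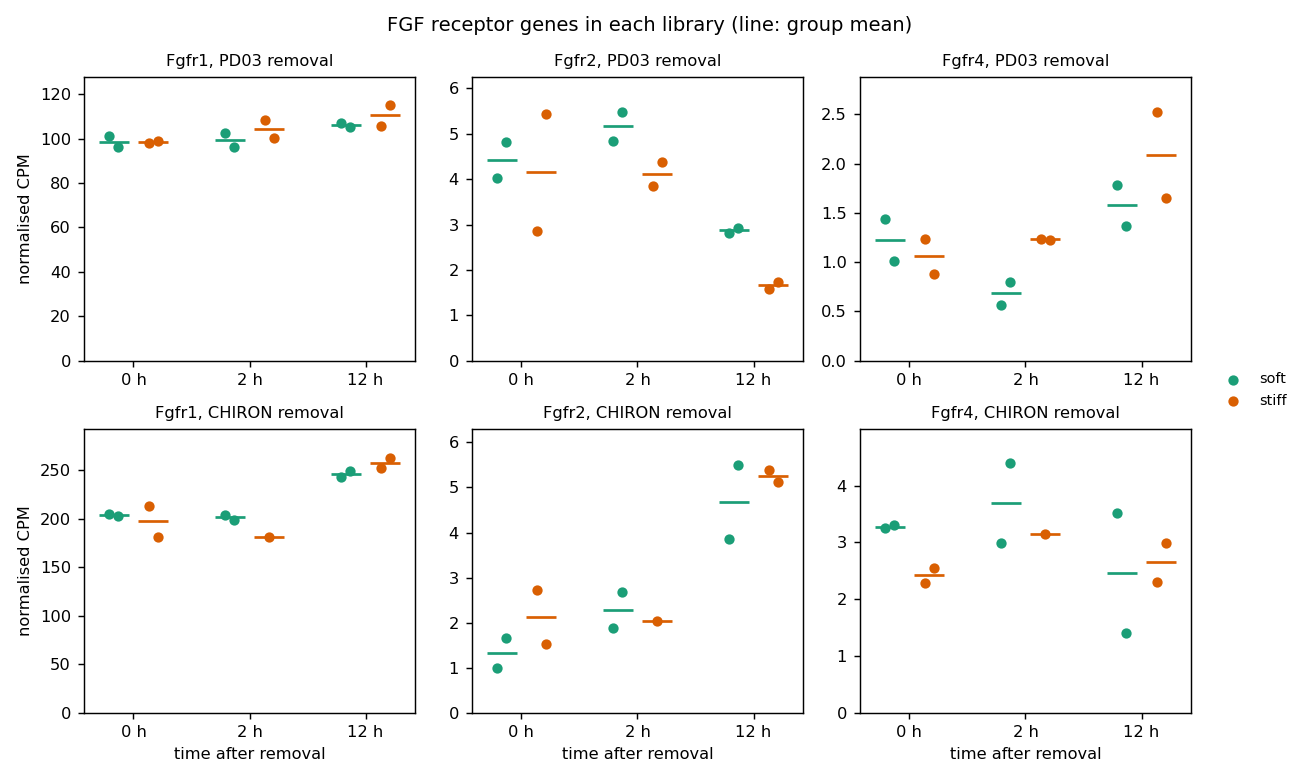
Normalised CPM (y axis, from 0) of 3 receptor genes by time after removal, with 1 point per library on soft (green) and stiff (orange) substrates and a line at the group mean. *Fgfr1* was higher at 12 h of CHIRON removal, and *Fgfr2* was lower at 12 h of PD03 removal and higher at 12 h of CHIRON removal.

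*Fgfbp1* encodes a secreted carrier that releases FGFs from the matrix. In PD03 removal its soft libraries started at 12.9 and 14.2 CPM, stood at 23.03 and 23.2 CPM by 2 h and reached 17.3 and 14.8 CPM by 12 h. Its stiff libraries started at 15.2 and 18.6 CPM, stood at 29.7 and 30.8 CPM by 2 h and reached 21.8 and 20.8 CPM by 12 h. It was therefore highest at 2 h on both substrates. By 2 h the log2 fold change was 0.77 (SE 0.11, adjusted p = 6.1e-05) on soft and 0.83 (SE 0.10, adjusted p = 2.4e-06) on stiff substrates. By 12 h these were 0.24 (adjusted p = 0.12) and 0.32 (SE 0.11, adjusted p = 0.021). The last call was lost by DESeq2 (adjusted p = 0.062) and on leaving out stiff 0 h replicate 1 or either stiff library at 12 h.

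In CHIRON removal the soft libraries of *Fgfbp1* started at 4.82 and 4.16 CPM, stood at 4.87 and 5.41 CPM by 2 h and reached 3.82 and 1.86 CPM by 12 h. Its stiff libraries started at 4.83 and 5.65 CPM, with 5.74 CPM in the 2 h library, and reached 2.41 and 2.93 CPM by 12 h. On both substrates the 12 h libraries lay below the 0 h libraries, and the soft ones stood far apart. By 12 h the change on the log2 scale was -0.97 on stiff (SE 0.28, adjusted p = 0.021) and -0.59 on soft substrates (SE 0.27, adjusted p = 0.15). The call on stiff substrates was lost without stiff 0 h replicate 2 or either stiff library at 12 h, and a call on soft substrates was gained without soft 12 h replicate 1 (-1.27, adjusted p = 0.015).

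Counts of members called were read against the share of all genes called in the same comparison. Members were chosen with earlier results of these data known, so these counts are a description. After PD03 removal 2 of 6 members tested were called at 2 h on soft (1.96% of 13405 genes) and on stiff substrates (2.73%), and 1 at 12 h on soft (29.4%) and 5 on stiff substrates (38.4%). After CHIRON removal 1 of 8 was called at 2 h on soft (0.226% of 14615 genes) and on stiff substrates (0.103%), and 3 and 4 at 12 h (17.8% and 16.8%). Since 16.8% to 38.4% of all genes were called by 12 h, a call at that time was not particular to the members. A contrast of 12 h with 2 h over both substrates, added after seeing the data, called 4 members in PD03 removal (49.3%) and 4 in CHIRON removal (24.9%). Its adjusted p-values do not allow for that choice. In PD03 removal *Fgfbp1* was lower at 12 h (-0.52, SE 0.077, adjusted p = 2.3e-06), as was *Fgfr2* (-1.08, SE 0.20, adjusted p = 4.6e-05), whereas *Fgfr4* (0.99, SE 0.28, adjusted p = 0.0049) and *Fgf4* (0.13, SE 0.042, adjusted p = 0.013) were higher, the last not without stiff 12 h replicate 1. In CHIRON removal *Fgf4* (0.65), *Fgfr1* (0.39) and *Fgfr2* (1.18) were higher and *Fgfbp1* lower (-0.95), with adjusted p between 5.0e-07 and 0.0027.

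**Figure D4:**
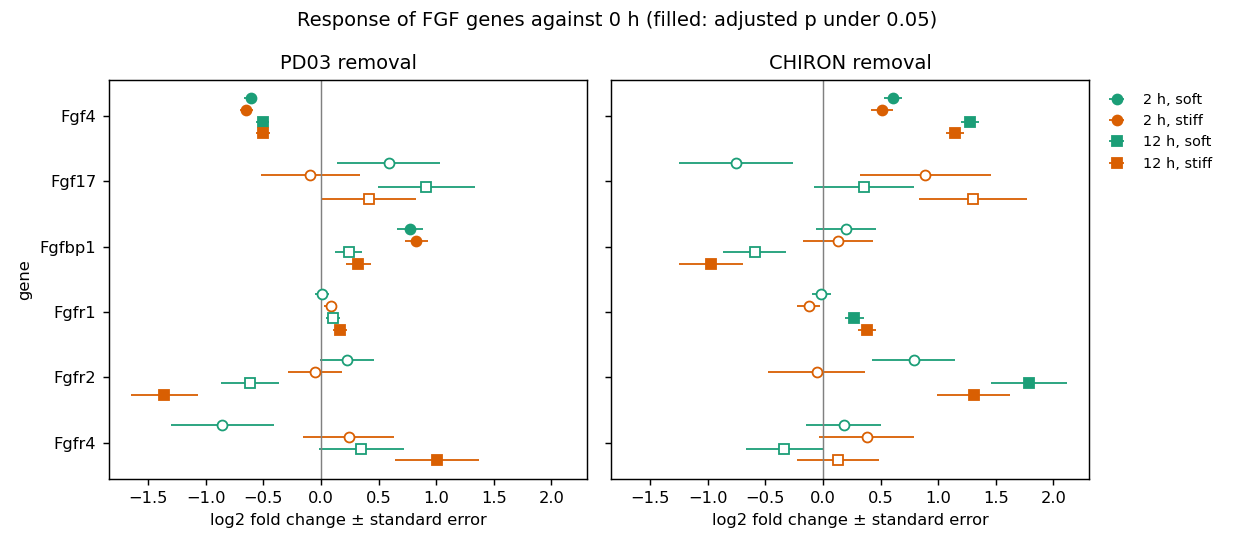
Log2 fold change against 0 h (x axis, ± SE) of 6 members after PD03 removal (left) and CHIRON removal (right), at 2 h (circles) and 12 h (squares) on soft (green) and stiff (orange) substrates, with filled symbols for an adjusted p under 0.05. *Fgf4* was left of 0 after PD03 removal and right of 0 after CHIRON removal in all 4 contrasts of each.

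The response at 12 h differed between removals for 5 of 9 members tested (36.1% of 14742 genes) in a fit over both experiments, averaged over soft and stiff substrates. PD03 minus CHIRON removal was -1.72 for *Fgf4* (SE 0.069, adjusted p = 5.2e-17), -2.53 for *Fgfr2* (SE 0.31, adjusted p = 2.4e-07) and 1.05 for *Fgfbp1* (SE 0.19, adjusted p = 7.8e-05). It was -0.19 for *Fgfr1* (SE 0.068, adjusted p = 0.029), which was called higher on stiff substrates in both experiments. *Fgf5* is the other one counted, at 2.90 (SE 0.88), but it passed the filter on low counts in neither experiment alone and entered this fit only through stiff 12 h replicate 1 of PD03 removal, the library where it was highest (10 reads, 0.720 CPM). Entry through the library where a gene is highest favours a difference, so the value of *Fgf5* is given as a description. The call on *Fgfr1* was lost in 9 of 16 fits that left out 1 library, and one on *Fgfr4* was gained without soft 12 h replicate 1 of CHIRON removal (1.23, adjusted p = 0.0067). The experiments were normalised separately and differed at 0 h in the same medium. There *Fgfr1* stood near 100 CPM in PD03 removal and near 200 in CHIRON removal. *Fgfbp1* stood at 12.9 to 18.6 CPM in PD03 removal and 4.16 to 5.65 in CHIRON removal. In the same order *Fgf4* stood at 191 to 220 and 137 to 157 CPM, and *Fgfr2* at 2.86 to 5.45 and 0.984 to 2.71 CPM. These differences cannot be told apart from the experiment.

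Stiffness was the other variable of the design. After PD03 removal no member was called between soft and stiff substrates by edgeR at 0 h (0.0298% of genes), 2 h (0.134%) or 12 h (0.776%), with 1, 1 and 2 members at an unadjusted p under 0.05 and none by DESeq2. *Fgfbp1* was lower on soft substrates at each time, at -0.33, -0.39 and -0.41 (adjusted p = 0.48, 0.16 and 0.095), and its soft and stiff libraries did not overlap at any time. Averaged over the 3 times, a contrast added after seeing the data, it was -0.37 (SE 0.064, adjusted p = 0.00091 by edgeR and 0.0014 by DESeq2), 1 of 6 members called (1.89% of genes), and it stayed called on leaving out any of the 12 libraries in turn. The adjusted p does not allow for the choice of this contrast, and the fits that left out a library reuse the same data. The value is therefore given as a description.

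After CHIRON removal no member was called between substrates at 0 h (0% of genes), 2 h (0%), 12 h (0%) or over the 3 times (0%) by edgeR or DESeq2, with 1 member at an unadjusted p under 0.05 at 0 h and none in the others. *Fgfbp1* was -0.08 over the 3 times there (SE 0.17, adjusted p = 0.94). The response to removal was not called different between substrates for any member by either tool, at 2 h (0.00746% of genes) or 12 h (0%) of PD03 removal, or at 2 h (0%) or 12 h (0%) of CHIRON removal, with 1 member at an unadjusted p under 0.05 at 2 h of CHIRON removal and none in the rest.

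**Figure D5:**
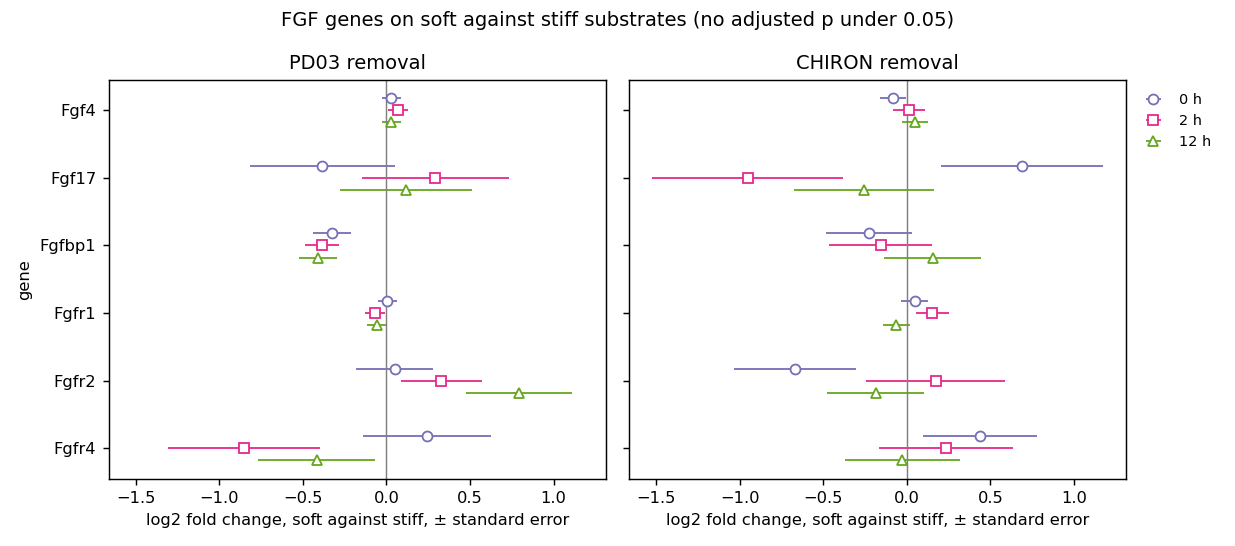
Log2 fold change of soft against stiff substrates (x axis, ± SE) of 6 members in PD03 removal (left) and CHIRON removal (right) at 0 h (circles), 2 h (squares) and 12 h (triangles). *Fgfbp1* lay left of 0 at all 3 times in PD03 removal, and none of the symbols passed an adjusted p of 0.05.

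Other genes of the pathway were taken from lists. Like the marker lists below, these were chosen with earlier results of these data known, so their counts are a description. Of 14 feedback and response genes 9 rose by 2 h after PD03 removal on each substrate and 12 by 12 h, with none lower. Of all genes tested 1.31% and 1.84% were called higher at 2 h on soft and stiff substrates, and 14.1% and 18.5% at 12 h. Their median log2 fold change by 12 h was 0.61 on soft and 0.70 on stiff substrates, against -0.0014 and -0.0015 over all genes tested. *Spry4*, a Sprouty inhibitor, rose by 3.12 on soft and 3.14 on stiff substrates by 2 h, *Fos*, an early response factor, by 1.62 and 2.80, and *Dusp6*, an ERK phosphatase, by 1.90 and 2.15. After CHIRON removal 8 of the 14 were lower on soft substrates by 12 h (8.63% of all genes) and 7 on stiff (8.33%), led by *Spry4* (-2.36 and -2.42), *Myc* (-2.30 and -1.53) and *Spry2* (-1.35 and -1.24). At 2 h of CHIRON removal *Spry4* was the only one called, lower on soft (adjusted p = 0.016) and on stiff substrates (-1.25, adjusted p = 0.029). The difference in the 12 h response, PD03 minus CHIRON removal, was called for 11 of the 14, all positive (18.6% of 14742 genes). The list median was 1.53 against 0.011 over all genes tested. Between substrates in PD03 removal, 3 of the 14 were lower on soft at 2 h (0.127% of all genes) and 6 at 12 h (0.485%). Those at 12 h were led by *Dusp4* (-0.84, adjusted p = 0.0083), *Myc* (-0.59, adjusted p = 0.021) and *Spry4* (-0.42, adjusted p = 0.0018).

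Of 17 other FGF ligands 6 were tested in PD03 removal. *Fgf3* was the only one called at 2 h, on soft substrates (-0.92, adjusted p = 0.027), where 1.96% of all genes were called. On stiff substrates it was -0.71 (adjusted p = 0.098). By 12 h *Fgf11*, an intracellular FGF homologue, rose on both substrates (1.15 and 0.91), and on stiff substrates *Fgf2* (-1.77, adjusted p = 0.037) and *Fgf3* (-0.66, adjusted p = 0.022) were lower. On soft substrates *Fgf2* was -1.26 (adjusted p = 0.056) and *Fgf3* -0.35 (adjusted p = 0.22) by 12 h. Of all genes tested, 29.4% on soft and 38.4% on stiff substrates were called at that time. In CHIRON removal 1 of 10 tested, *Fgf10*, was lower by 12 h (-1.28 and -1.49), against 17.8% and 16.8% of all genes called. Of 11 adaptors tested in PD03 removal 5 rose by 12 h on each substrate, against 14.1% and 18.5% of all genes. On soft substrates *Cbl*, a ubiquitin ligase (0.37), and *Plcg1*, a phospholipase (0.25), led them, and on stiff substrates *Plcg1* (0.34) and the adaptor *Grb2* (0.26). None of 12 was called against 0 h in CHIRON removal, and *Sos2*, an exchange factor for Ras, was called higher at 12 h than at 2 h (0.26, adjusted p = 0.045).

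Of 25 co-receptors, binding proteins and heparan sulphate enzymes tested in PD03 removal, 4 rose and 2 fell on soft and 9 rose and 4 fell on stiff substrates by 12 h, after 2 that rose by 2 h on stiff substrates, *Gpc4* among them (0.51). Those called at 12 h stood against 29.4% and 38.4% of all genes called, and the share on soft substrates was below that background. By 12 h *Gpc4*, a glypican (0.55 and 0.79), rose on both, and *Hs6st1*, a heparan sulphate sulphotransferase (-0.24 and -0.33), was lower on both. Of 26 tested in CHIRON removal 5 rose and 5 fell on soft and 3 rose and 4 fell on stiff substrates, against 17.8% and 16.8% of all genes called. Here *Flrt1* (1.79 and 1.66) and *Hs6st1* (0.65 and 0.55) rose, and *Flrt3* (-2.04 and -2.29), *Sulf1* (-0.90 and -1.05) and *Gpc4* (-0.63 and -0.53) were lower.

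By the smallest root mean square difference over 8 log2 fold changes against 0 h among 13171 genes, the genes most like *Fgf4* were *Ackr3* (0.186), *Klhl34* (0.220) and *Efhd1* (0.259). Those most like *Fgfr1* were *Kif22* (0.053), *Mlf2* (0.055) and *Prkci* (0.063), and those most like *Fgfr2* were *Fbln5* (0.338), *Rab3b* (0.346) and *Atg16l2* (0.359).

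Markers of cell states were summed at 0 h and 12 h, and some lists shifted while others overlapped between these times. The summed level of 7 naive and general pluripotency genes was 6847 to 6999 CPM at 0 h and 5602 to 5999 at 12 h of PD03 removal, that of 6 primed epiblast genes 294 to 315 and 383 to 419, that of 4 neural genes 7.80 to 8.44 and 9.57 to 12.5, and that of 7 primitive streak genes 21.3 to 25.2 and 49.4 to 57.7. By the test, 5 of 7 naive genes were lower on each substrate (15.3% and 19.9% of all genes on soft and stiff), and 4 of 6 primed genes were higher on soft and 3 on stiff substrates (14.1% and 18.5%). Of 4 streak genes tested 2 were higher and 1 lower on each substrate, against the same shares of all genes. Over all libraries of PD03 removal *T* (10.5 to 36.7 CPM) and *Eomes* (4.22 to 20.7 CPM) reached the highest levels of the streak list. *Gsc*, of the same list, ranged from 0.660 to 5.75 CPM. These ranges span all times and do not give a direction, and the list did not move as a whole. Of 2 neural genes tested, 1 was called higher at 2 h on soft substrates (1.31% of all genes) and none on stiff. None was called at 12 h on soft substrates. The neural sum at 2 h, 7.27 to 12.3 CPM, overlapped the ranges at both 0 h and 12 h. In CHIRON removal naive genes summed to 5196 to 5470 and 5158 to 5398, primed genes to 177 to 190.2 and 199.7 to 218, streak genes to 23.6 to 26.0 and 14.3 to 17.4, and 4 neural genes to 14.1 to 17.9 and 27.6 to 31.2. Fibroblast genes (7) summed to at most 10.9 CPM and primitive endoderm genes (7) to at most 17.6 CPM in any library, with *Foxa2*, *Wnt3*, *Mesp1*, *Neurog2*, *Col3a1*, *Postn* and *Dcn* at 0 in at least 1 library of each experiment. By the test, 2 naive genes were higher and 3 lower on soft substrates at 12 h of CHIRON removal, and 4 and 3 on stiff, while 2 primed genes were higher and 1 lower on each, where 17.8% and 16.8% of all genes were called. Of 5 streak genes tested there 1 was lower on soft and 2 on stiff substrates, against 8.63% and 8.33% of all genes called lower. Of 3 neural genes tested 1 was higher on each, against 9.18% and 8.46% called higher. The neural sum there was mostly *Sox1*, at 11.4 to 28.8 CPM. The part of these shifts in the results on FGF genes was not tested.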

How the data were processed

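E14 mESC RNA was sequenced after ribosomal depletion. The authors trimmed reads with Trim Galore, aligned them to GRCm38 with TopHat2 2.1.0, counted reads per gene with featureCounts 1.5.0 and deposited raw counts. The strand setting was not stated. The table of PD03 removal held 12 columns of other samples, not used, and 23 empty lines. Protein-coding genes (GENCODE M21) that passed filterByExpr (minimum count 10, minimum total 15) were tested with the quasi-likelihood test of edgeR 4.0.16 in R 4.3.3 after TMM, with all groups of an experiment in 1 fit, and adjusted by Benjamini-Hochberg (threshold 0.05). The standard error was the log2 fold change divided by the root of the F statistic. In the experiment with a group of 1 library the filter let genes with fewer reads pass. Members were named in every comparison, pathway genes and nearest patterns by rule. Members and lists were chosen with earlier results of these data known. Alternatives were DESeq2 1.42.0, its size factors, no filter, all genes, only the groups compared, a replicate block, the left-out library, and leaving out each library. Same-numbered libraries did not deviate together (mean correlation -0.0025 over 15 group pairs of PD03 removal and -0.020 over 10 of CHIRON removal). The procedure was tested on simulated data. Figures were made with Python 3.11.15 and matplotlib 3.10.9. Promoters came from RefSeq for 6 of the 10 members.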

Additional observations from a re-analysis of the deposited data

Results flagged for a closer look

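The 12 h response against 0 h differed between PD03 removal and CHIRON removal, by the test of the difference in edgeR, for 5 members. The difference, PD03 minus CHIRON removal on the log2 scale, was -1.72 for *Fgf4*, 2.90 for *Fgf5*, -0.192 for *Fgfr1*, -2.53 for *Fgfr2* and 1.05 for *Fgfbp1* (adjusted p = 5.19e-17, 0.0112, 0.0285, 2.43e-07 and 7.8e-05). *Fgf5* was tested in neither experiment alone and entered the fit over both only through stiff 12 h replicate 1 of PD03 removal, where it was highest, so that its value is a description and supports nothing. It rests on 27 reads at 12 h and 8 at 0 h of PD03 removal, summed over 4 libraries each.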

How the results depend on the processing

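Of the counts of members called, 260 under an alternative stayed within 1.5 times the value reported and 24 did not. At 12 h on soft substrates after PD03 removal 2 members were called, in place of 1, with no low-count filter, with the replicate block and with only the groups compared. At 12 h on stiff substrates 2 were called by DESeq2 in place of 5, and 2 to 3 on leaving out 1 library. After CHIRON removal the count at 2 h was 0 on stiff substrates with all genes, with the replicate block, with only the groups compared and on leaving out either library, and 0 to 1 on soft substrates on leaving out 1. With the library of 171333 counts added, 0 members were called at 2 h and 12 h on both substrates and for 12 h against 2 h, *Fgf4* at 2 h on stiff substrates turned to -0.312, and the difference between removals called 3. Leaving out 1 library gave 2 to 4 at 12 h on stiff substrates, 3 to 6 for the difference between removals, and 1 to 2 for soft against stiff over the 3 times of PD03 removal. Of single log2 fold changes 463 kept direction and side of the threshold, 51 lost a call, 10 gained one and 1 reversed. The cause was not tested. *Fgf5* could not be fitted without stiff 12 h replicate 1 of PD03 removal and lost its call with the left-out library (2.89, adjusted p = 0.064). The replicate block changed no other count by over 1.5 times. CPM on all counts of the table moved 65 group levels by over 1 SD and left 55 within it. Depth limits *Fgf5*, *Fgf8*, *Fgf15* and *Fgfr3*, and 2 replicates a group limit the rest.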
